A study of Mus musculus with 12 samples.

Results

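The hippocampus and the cerebral cortex of healthy adult mice were compared through their long non-coding transcripts. The comparison used the 6 libraries of WT mice among the 12 libraries of the series, 3 from the hippocampus and 3 from the cerebral cortex. Rows of the count table on chromosomes X and Y were dropped, which removed 2370 of 48033 rows, and the remaining 45663 rows were also summed into 20971 genes and loci. Of these, 7853 were lncRNA genes and 10737 were protein-coding genes, the latter represented by their non-coding transcripts such as retained introns. Another 1799 were loci assembled from the reads that carry no gene name, 345 were pseudogenes and 225 were Ensembl identifiers not found in the annotation. The assembled loci and the unmatched identifiers have no chromosome in the files used here, so some of them may lie on X or Y.

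The WT mice were non-transgenic C57BL/6J animals aged 7 months, and they were the controls of a study of 5xFAD mice, which carry transgenes with mutations of familial Alzheimer's disease under a neuronal Thy1 promoter. Both regions were taken from each mouse after cervical dislocation and flash freezing. Libraries were made from total RNA of whole tissue after depletion of ribosomal RNA, with a kit that keeps the strand. The methods of the study, written for circular RNAs, also give a removal of linear RNAs with RNase R. Whether the libraries counted here went through that step is not stated there. Whether the same number in the 2 regions marks the same mouse is not stated. The main test therefore took all libraries as independent, although both regions were taken from each mouse. It ignored this pairing. Its p-values measure the spread among 3 libraries of each region.

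Long non-coding RNAs (lncRNAs) are long transcripts that encode no known protein. Many are made in few cell types, often from the opposite strand or the neighbourhood of genes for transcription factors, and many stay in the nucleus. The hippocampus is a folded sheet of pyramidal fields (CA1 to CA3) and the granule cells of the dentate gyrus, whereas the neocortex is a stack of layers with different projection neurons, and transcription factors such as Zbtb20, Prox1 and Emx2 shape the former and Cux1 and Tbr1 the latter. In bulk tissue, fewer cells of a type and less RNA per cell cannot be told apart.

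The WT libraries held 3517967 to 5014389 counts. Levels are given as CPM, counts per 1e6 of the library's counts in the genes and loci tested, scaled by edgeR's TMM method, and 3 counts, the smallest amount taken as detected, were 0.632 to 0.876 CPM. This floor covers counting error only. Assembled loci took 38.2 to 41.3% of the counts in the hippocampus and 33.8 to 39.7% in the cortex. The methods of the study give 1 male and 2 females in each group, but all 6 WT libraries held 1084 to 1661 Y-linked counts, which goes against that composition in both regions alike. In the 5xFAD mice, libraries 1 and 2 of each region held 0 Y-linked counts and library 3 held 1074 (hippocampus) or 1276 (cortex).

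The regions differed in 401 of the 11146 genes and loci that passed the filter on low counts (3.6%, edgeR's quasi-likelihood test, adjusted p under 0.05). Of these, 218 were higher in the hippocampus (1.96% of those tested) and 183 were higher in the cortex (1.64%). Among the lncRNA genes, 1673 were tested, 35 were higher in the hippocampus and 37 in the cortex, together 4.30%. The share was 1.93% of 7555 protein-coding genes seen through their non-coding transcripts, with 71 higher in the hippocampus and 75 in the cortex, and 10.2% of 1730 assembled loci, with 111 and 66. The called lncRNA genes had a median absolute log2 fold change of 1.93 in the hippocampal direction and 1.65 in the cortical direction, and 16 and 15 of them differed at least 4-fold. The median log2 fold change over all genes and loci tested was −0.02. With the library number as a block in the model, 5 genes and loci were called, all among the 401. The number of calls fell without any 1 library, to 119, 139 and 116 without hippocampus libraries 1, 2 and 3, and to 189, 209 and 303 without cortex libraries 1, 2 and 3. Of the 72 called lncRNA genes, 11 were called in every one of these 6 fits. All 72 kept their direction, but their regions did not overlap, which left almost no room for a change.

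**Figure D1:**
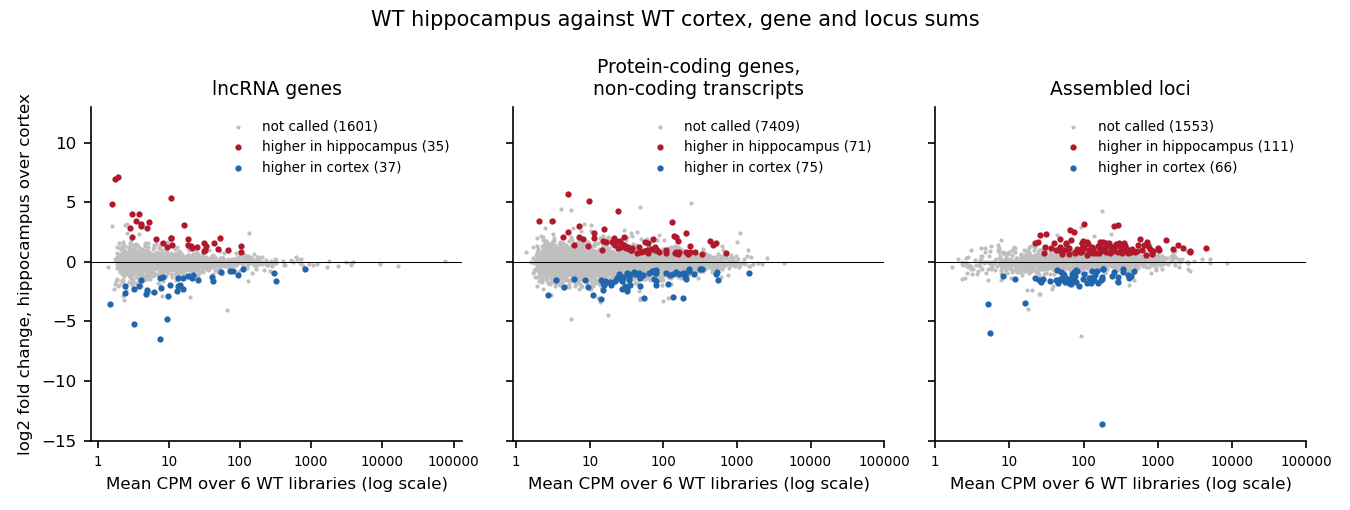
Log2 fold change between WT hippocampus and WT cortex (vertical axis) against mean CPM over the 6 WT libraries (horizontal axis, log scale) for lncRNA genes, protein-coding genes by their non-coding transcripts, and assembled loci, with called genes in red (higher in hippocampus) and blue (higher in cortex). The lncRNA calls lie mostly under 100 CPM, while the assembled calls reach higher levels, and fitted folds of genes at 0 in a region depend on the model's prior count.

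By annotation, long intergenic RNAs held the largest share of calls among the lncRNA types with over 50 genes tested, 19 in each direction among 619 tested (6.14%). Antisense genes had 9 higher in the hippocampus and 11 higher in the cortex among 471 (4.25%), and processed transcripts had 4 and 6 among 284 (3.52%). At the level of detection the regions were close. At least 3 counts in every library of the region were found for 2079 lncRNA genes in hippocampus, for 2018 in cortex and for 1812 in both, while 3304 lncRNA genes were at 0 in all 6 libraries. There were 7 lncRNA genes detected in every hippocampus library and at 0 in every cortex library, namely Gm16551, Spag17os, BC050972, Gm26637, B230110G15Rik, Gm35037 and 4930483O08Rik, and 0 genes with the reverse pattern. These 7 had 3 to 22 counts in the hippocampus libraries, so lower amounts in the cortex were not detectable at this depth. Gm16551 was at 1.61, 1.65 and 0 CPM in the cortex of 5xFAD mice.

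Start regions of 6 lncRNA genes among those with the largest differences are shown because they place the contrast in sequence: the first 3 were higher in the hippocampus and the last 3 in the cortex. They were picked after the windows of 17 named genes had been searched and include all 4 that hold a motif, so the share of motifs among them carries no information. Each run covers 120 bases before to 30 bases after the start that RefSeq gives on GRCm38.p6, read 5′ to 3′ on the gene's strand, and capitals mark a match to one of the motifs TAATTA (the core bound by many homeodomain factors), CAGATG or CAGCTG (E-boxes bound by basic helix-loop-helix factors) on either strand.
6330420H09Rik: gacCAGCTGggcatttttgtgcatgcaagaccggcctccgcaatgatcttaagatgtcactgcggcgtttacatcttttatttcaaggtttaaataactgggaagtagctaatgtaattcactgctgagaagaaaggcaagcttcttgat
Gm26644: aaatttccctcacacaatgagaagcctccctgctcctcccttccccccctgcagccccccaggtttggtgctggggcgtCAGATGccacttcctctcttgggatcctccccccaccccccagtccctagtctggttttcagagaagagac
Gm16551: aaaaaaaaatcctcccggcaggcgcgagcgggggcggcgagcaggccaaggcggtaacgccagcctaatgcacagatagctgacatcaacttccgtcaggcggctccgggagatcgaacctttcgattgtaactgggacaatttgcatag
A830009L08Rik: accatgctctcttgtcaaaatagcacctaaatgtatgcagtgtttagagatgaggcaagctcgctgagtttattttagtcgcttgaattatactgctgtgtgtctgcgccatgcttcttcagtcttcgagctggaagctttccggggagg
Gm29674: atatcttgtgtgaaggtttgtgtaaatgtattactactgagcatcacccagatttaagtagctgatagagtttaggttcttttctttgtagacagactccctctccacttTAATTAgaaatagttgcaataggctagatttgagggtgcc
Gm12992: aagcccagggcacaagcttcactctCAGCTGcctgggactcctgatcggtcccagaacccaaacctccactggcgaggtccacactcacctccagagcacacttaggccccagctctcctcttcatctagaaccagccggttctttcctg
In order, these windows lie at chr7:135853999-135854148 (plus strand), chr19:44695451-44695600 (minus), chr9:74848317-74848466 (plus), chr13:91388056-91388205 (minus), chr10:107205670-107205819 (minus) and chr4:131920000-131920149 (minus).

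Full windows of 300 bases, 250 before to 50 after the start, were available for 18 lncRNA genes higher in the hippocampus, 20 higher in the cortex and 749 of all lncRNA genes tested. TAATTA was in 2 of 18 hippocampal windows (11.1%), 3 of 20 cortical windows (15%), 3.74% of the 749 and 5.31% of 27025 genes of the promoter table. CAGATG was in 6 of 18 (33.3%) and 5 of 20 (25%), beside 17.6% of the 749 and 17.2% of all. CAGCTG was in 6 of 18 (33.3%) and 2 of 20 (10%), beside 17.2% and 16.1%. The windows of called genes had a median GC content of 50.2% in the hippocampal and 48.8% in the cortical direction, and that of all lncRNA genes tested was 56.3%. A match is only a run of letters, and numbers of windows this small carry wide counting error.

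Among the hippocampal lncRNAs with more than 3 counts in the cortex libraries together, the largest difference was that of 6330420H09Rik, a long intergenic RNA of 2 exons at chr7:135853682-135855710 on GRCm38, 137321 bases from its nearest protein-coding gene, Mki67. It had 23.2, 17.7 and 21.3 CPM in hippocampus libraries 1 to 3 and 0.475, 0.874 and 0 CPM in the cortex. Every hippocampus library was thus far above every cortex library, where the gene had 2, 4 and 0 counts. The mean was 46.2 times higher in the hippocampus (log2 fold change 5.34 ± 0.53 (SE), adjusted p = 0.00683 by edgeR, n = 3 in each region). 2310002F09Rik, at chr7:43695209-43797958 overlapping the kallikrein-related protease gene Klk13 on the opposite strand, was at 28.6, 29.1 and 30.05 CPM in the hippocampus and 1.90, 3.93 and 4.67 CPM in the cortex. Its mean level was 8.35 times higher in the hippocampus (log2 fold change 3.06 ± 0.31, adjusted p = 0.00702). Its hippocampus libraries lay close together, at 29.2 ± 0.746 CPM (SD, n = 3), and all were above the cortex libraries.

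C630031E19Rik lies antisense within Myt1l, a gene for a neuronal zinc finger transcription factor, at chr12:29675628-29686445. Its levels were 9.03, 9.90 and 10.1 CPM in the hippocampus and 0.712, 0.874 and 1.17 CPM in the cortex, a 10.5-fold difference (adjusted p = 0.00592). The non-coding transcripts of Myt1l itself gave a log2 fold change of 0.21 (adjusted p = 0.703). E330013P04Rik, an intergenic RNA on chromosome 19, was at 8.17, 8.21 and 5.96 CPM in the hippocampus and 0.950, 0.874 and 0.584 CPM in the cortex, a 9.28-fold difference (adjusted p = 0.00779). These 4 genes were called in all 6 fits that each left out 1 WT library.

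Other hippocampal lncRNAs were low and were not detected, or barely detected, in the cortex. Gm35037, at chr7:3451357-3475020, had 16, 22 and 16 counts in the hippocampus libraries and 0 in each cortex library, and Gm16551, which starts 13938 bases from the start of Onecut1, a homeodomain transcription factor gene, had 20, 14 and 14 counts and again 0 in the cortex. Against the floor of 3 counts per library these were at least 5.23-fold and at least 4.66-fold higher in the hippocampus (adjusted p = 0.0191 and 0.0234). Zim2, from the imprinted Peg3 domain, had 19, 13 and 11 counts against 1, 0 and 0 (adjusted p = 0.0237). Gm26644, 60585 bases from the gene of the transcription factor Pax2, had 26, 30 and 24 counts against 0, 4 and 0 (adjusted p = 0.0431). All 4 separated the regions completely, which was a condition for naming them. Of the 6 fits that each left out 1 library, Gm35037 was called in 3, Gm16551 and Gm26644 in 1 each and Zim2 in 0.

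The remaining lncRNAs among the 12 with the largest hippocampal differences were Gm36447, Gm47728, B430212C06Rik and 4933406B17Rik, with mean levels 7.14 to 16.6 times those of the cortex. Gm47728 had 6.02, 6.95 and 6.19 CPM in the hippocampus and 0.237, 0.655 and 0.876 CPM in the cortex (adjusted p = 0.0121). Its neighbour Gm20751, 15.7 kb away and, like it, nearest to the coding gene Rnf182, was called in the same direction with 12.0, 14.5 and 10.8 CPM against 4.99, 4.15 and 2.92 CPM (adjusted p = 0.0292). Gm20751 was named after its values were seen.

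Among the 12 lncRNAs with the largest differences in the cortical direction, the one with the smallest SE was Gm13054, annotated antisense to Nppa, the gene of atrial natriuretic peptide, at chr4:148001091-148004014. It had 4.73, 4.002 and 3.44 CPM in the hippocampus and 25.2, 21.4 and 18.7 CPM in the cortex, 5.36 times more (log2 fold change −2.41 ± 0.23, adjusted p = 0.00598). It was the only one of these 12 that was called in all 6 fits without 1 library. A830009L08Rik, an intergenic RNA 72198 bases from Ssbp2, was at 1.505, 0 and 0.459 CPM in the hippocampus and 26.6, 12.7 and 16.1 CPM in the cortex, 28.2 times more (adjusted p = 0.0212). Gm29674 was at 0.860, 2.11 and 4.13 CPM in the hippocampus and 17.8, 19.4 and 14.02 CPM in the cortex, 7.23 times more (adjusted p = 0.0263). In all 3 the lowest cortex library was above the highest hippocampus library by more than 3-fold.

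Gm10635 and Gm47415 were nearly absent from the hippocampus. Gm10635, at chr9:79444037-79519302, had 0, 0 and 2 counts there and 126, 21 and 37 counts in the cortex (adjusted p = 0.0308), with cortex library 1 far above libraries 2 and 3. Gm47415, at chr12:98076355-98108567, had 0, 2 and 0 counts against 35, 31 and 14 (adjusted p = 0.0195). 1700047F07Rik was lower still, with 2, 1 and 0 counts against 13, 11 and 10 (adjusted p = 0.0381). The other 6 of the 12, 5830418P13Rik, Gm40331, Gm31518, Gm40055, Gm17501 and Gm12992, had mean levels 4.77 to 6.67 times those of the hippocampus. Of the 24 lncRNA genes named by size, 5 were called in every fit without 1 library, and the adjusted p of the others reached 0.148 at most. Of all 72 called lncRNA genes, 13, 19 and 14 remained called without hippocampus libraries 1, 2 and 3, and 23, 29 and 31 without cortex libraries 1, 2 and 3.

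**Figure D2:**
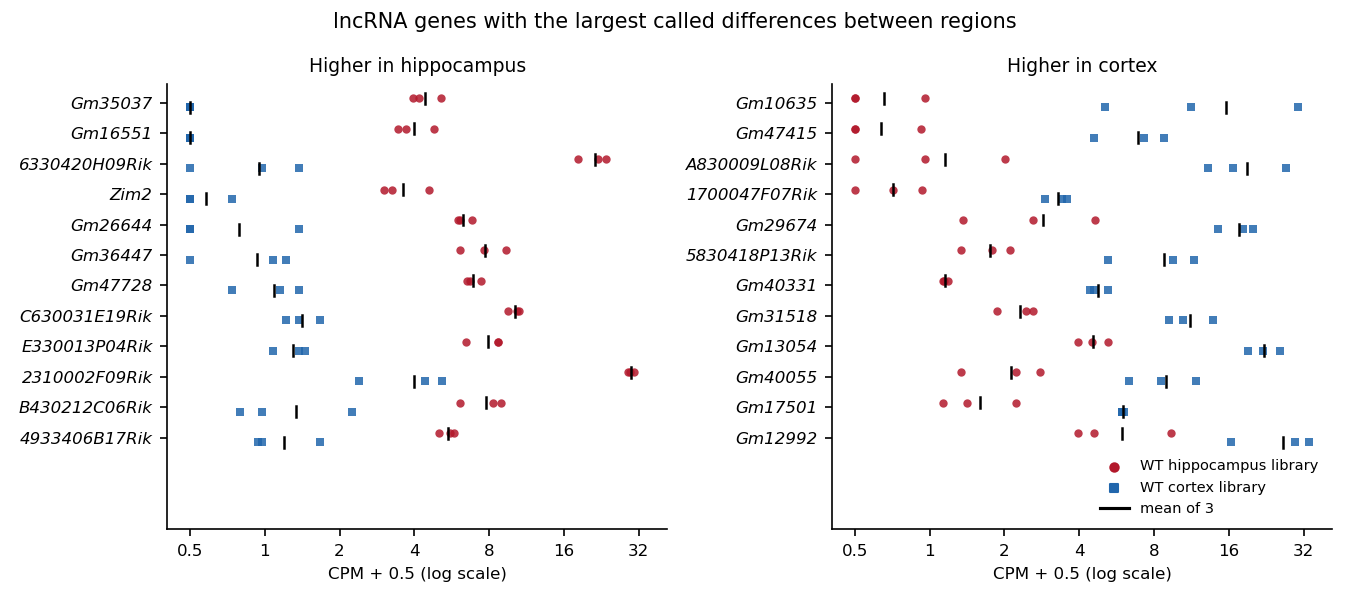
CPM + 0.5 (horizontal axis, log scale) in each WT hippocampus library (red circles) and each WT cortex library (blue squares), with the mean of 3 libraries as a black line, for the 12 lncRNA genes with the largest called difference in each direction. Libraries of the 2 regions overlap in none of the 24 genes, which was a condition for their selection, and the levels range from 0 to 33.2 CPM.

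Among the more abundant lncRNAs, 6 others were called in every fit without 1 library, and they were named after their values were seen. A830036E02Rik, antisense to Krt12 in the annotation, had 154, 167 and 138 CPM in the hippocampus and 473, 503 and 460 CPM in the cortex (log2 fold change −1.65 ± 0.12, adjusted p = 0.00267). Gm28928, an intergenic RNA 460198 bases from Dpp10, was at 21.1, 21.7 and 18.8 CPM in the hippocampus and at 56.7, 56.6 and 79.8 CPM in the cortex (adjusted p = 0.0084). The other 4, Gm46123, Gm20754, Gm2762 and Gm43166, were higher in the hippocampus with log2 fold changes of 1.30 to 1.55. Gm46123 had 126, 149 and 162 CPM there and 58.9, 60.3 and 57.3 CPM in the cortex (adjusted p = 0.00714). The regions did not overlap in these 6, nor in any of the 72 called lncRNA genes. The same held for every called protein-coding gene and assembled locus, so it goes with being called. Of all genes and loci tested, 12.4% did not overlap with the hippocampus higher and 12.6% with the cortex higher.

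LncRNAs linked to transcription factor genes were taken as a list, and 17 of its 22 members were tested. Of these, 2 were higher in the hippocampus and 0 in the cortex, where 1.96% and 1.64% of all genes and loci were, and the list's median log2 fold change was 0.09, beside −0.02 for all genes and loci. Prox1os, antisense to Prox1, the homeodomain factor of dentate granule cells, was at 13.97, 18.96 and 19.04 CPM in the hippocampus and 6.41, 2.62 and 3.80 CPM in the cortex, 4.05 times more (log2 fold change 2.01 ± 0.35, adjusted p = 0.0298). Emx2os, antisense to Emx2, a homeodomain factor of the medial cortical anlage, was at 54.8, 76.7 and 65.1 CPM against 34.7, 30.1 and 29.8 CPM, 2.08 times more (log2 fold change 1.05 ± 0.17, adjusted p = 0.0235). Emx2os was called in 0 and Prox1os in 1 of the 6 fits that each left out 1 library, with adjusted p-values of up to 0.0885 and 0.114. Both kept their direction, which levels without overlap left almost no room to change. Both genes start within 500 bases of the start of the factor gene, at 418 and 263 bases. A330008L17Rik had 71.8, 70.3 and 61.5 CPM against 32.3, 28.6 and 45.6 CPM, with an adjusted p of 0.0569 by edgeR, and was called by DESeq2. Dlx6os1, beside a homeodomain gene of interneurons, and Sox2ot, which spans the neural progenitor gene Sox2, had overlapping levels in the 2 regions, as had Rmst, Pantr1 and Six3os1.

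Further called lncRNAs beside factor genes were outside that list and were named after their values were seen. In the cortical direction, A830082K12Rik, antisense to Nr2f1, a nuclear receptor that patterns cortical areas, was at 94.4, 90.1 and 83.3 CPM against 139, 130 and 130 CPM (log2 fold change −0.58 ± 0.12, adjusted p = 0.0481). In the hippocampal direction, Gm11681, an intergenic RNA 4971 bases from Sox9, a factor gene of astrocytes and neural stem cells, had 9.67, 10.3 and 6.19 CPM against 0.950, 1.53 and 1.17 CPM (log2 fold change 2.81 ± 0.37, adjusted p = 0.0126). 4933413C19Rik is annotated within an intron of Glis3, on the same strand, and was higher in the hippocampus together with the non-coding transcripts of Glis3 (log2 fold changes 1.98 ± 0.29 and 2.44 ± 0.43, adjusted p = 0.0179 and 0.0306).

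Position relative to coding genes was described for all 72. Of the hippocampal lncRNAs 15 of 35 (42.9%) and of the cortical ones 18 of 37 (48.6%) overlapped a protein-coding gene, beside 59.4% of the 1673 tested. On the opposite strand were 11 of these 15 and 16 of these 18, and since the sources used here do not state whether counting used the strand, their reads cannot be told apart from those of the overlapped gene. The start lay within 5000 bases of the start of the nearest coding gene for 7 (20%), 13 (35.1%) and 34.2%. Where the nearest coding gene was itself tested through its non-coding transcripts, its sign was that of the lncRNA for 10 of 13 hippocampal and 12 of 16 cortical lncRNAs, beside 57.9% of 942 for all lncRNA genes tested, and 1 of these 29 coding genes, Glis3, was called, beside 27 of the 942.

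Called lncRNA genes within 500 kb of each other formed 6 pairs, of which 3 differed in the same direction and 3 in opposite directions. Gm20754 and Gm38353, which overlap on chromosome 3, had log2 fold changes of 1.54 and 1.93. Gm44257 and Gm35037, 61.3 kb apart on chromosome 7, had 1.19 and 7.09, the latter a fitted value against 0 counts. On chromosome 8, 4933406B17Rik and Gm31518 lie 89.7 kb apart and differed in opposite directions, the former at 4.51, 5.05 and 5.28 CPM in the hippocampus against 0.475, 0.437 and 1.17 CPM in the cortex and the latter at 1.93, 2.11 and 1.38 CPM against 13.3, 8.74 and 9.93 CPM. On chromosome 3, 4921539H07Rik and Gm40055 were 158.8 kb apart with log2 fold changes of 2.03 and −2.38, and on chromosome 2 A530013C23Rik and Gm14291 were 488.4 kb apart with 1.39 and −1.39.

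The most abundant lncRNAs did not pass the test. None of the 10 with the highest mean CPM was called by edgeR or by DESeq2, and 2 had an unadjusted p under 0.05 by edgeR. Among all genes and loci tested, edgeR called 3.6%, and 17.6% had an unadjusted p under 0.05. At these shares, so few genes would hold few or no calls. The absolute log2 fold changes of the 10 were 0.01 to 0.35. Malat1, a nuclear RNA of speckles, had 82115, 79809 and 74903 CPM in the hippocampus and 69103, 74919 and 77310 CPM in the cortex (log2 fold change 0.10 ± 0.11, adjusted p = 0.714). Meg3, a maternally expressed RNA, had 15037, 14684 and 14938 CPM against 17556, 17726 and 20006 CPM, so that the regions did not overlap but the difference of −0.31 ± 0.10 had an adjusted p of 0.19. Per kilobase of transcript, Malat1 was at 11408 CPM in the hippocampus and 10649 CPM in the cortex, while 6330420H09Rik was at 15.8 and 0.342 CPM. Of a list of 9 imprinted lncRNAs, to which Zim2 does not belong, 8 were tested and 0 were called by edgeR or by DESeq2, beside the same 3.6%. By edgeR, 4 of the 8 had an unadjusted p under 0.05, beside 17.6% of all genes and loci. The list's median log2 fold change was −0.05, with a range from −0.35 (Peg13) to 0.73 (Nespas). Of 14 nuclear and neuronal lncRNAs, 10 were tested and 1 was called, beside 3.6% of all genes and loci. Snhg11, which the annotation lists as protein coding, had 275, 242 and 246 CPM in the hippocampus and 392, 387 and 358 CPM in the cortex (log2 fold change −0.58 ± 0.11, adjusted p = 0.0427). Neat1, Tug1 and Pvt1 did not overlap between regions, as 12.4% of all genes and loci did not in that direction, and had adjusted p-values of 0.507, 0.133 and 0.142, with log2 fold changes of 0.22, 0.40 and 0.74.

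Host genes of small RNAs were read as 2 lists. Of the host genes of small nucleolar RNAs, 14 of 18 were tested and 0 were called by edgeR or by DESeq2, beside 3.6% of all genes and loci by edgeR. None had an unadjusted p under 0.05 by edgeR, beside 17.6% of all. Absolute log2 fold changes of these hosts stayed between 0.01 and 0.35. Of the list of miRNA hosts, 8 of 11 were tested and 2 were called, beside 3.6% of all genes and loci, and 1 of the 2, Mirt1, is not known as a host. Mir124-2hg, a host of the neuronal miRNA miR-124, had 207, 206 and 208 CPM in the hippocampus and 428, 388 and 373 CPM in the cortex, 1.91 times more (log2 fold change −0.94 ± 0.11, adjusted p = 0.0085), whereas the other host of that miRNA in the table, Mir124a-1hg, had a log2 fold change of −0.18 ± 0.10 (adjusted p = 0.436). Mirt1, named after myocardial infarction, had 24.7, 35.2 and 27.8 CPM in the hippocampus and 7.60, 6.33 and 9.93 CPM in the cortex (log2 fold change 1.88 ± 0.25, adjusted p = 0.0126).

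The region labels were checked through the non-coding transcripts of marker genes. Of 26 genes of the hippocampal fields, 14 had rows and 11 were tested. Of these, 3 were higher in the hippocampus and 0 in the cortex, beside 1.96% and 1.64% of all genes and loci. The list's median log2 fold change was 0.83. Zbtb20, which specifies CA1 neurons, had 107, 123 and 116 CPM in the hippocampus and 30.1, 35.8 and 26.3 CPM in the cortex, 3.76 times more (adjusted p = 0.00413). Glis3 and Ahcyl2 were the others, and 6 of the 11 did not overlap between the regions in that direction, beside 12.4% of all genes and loci. Rgs14, a marker of CA2, had 41.9, 67.8 and 355 CPM in the hippocampus and 195, 20.5 and 16.1 CPM in the cortex. Summed over the list, the hippocampus libraries had 805.8 to 1160 CPM and the cortex libraries 449.6 to 651.4 CPM. Rows of Prox1, Wfs1, Dkk3, C1ql2 and 8 other members were not in the table.

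Of 28 cortical layer genes, 14 were tested, with a median log2 fold change of −0.73. Of these, 3 were higher in the cortex and 1 in the hippocampus, beside 1.64% and 1.96% of all genes and loci. Mef2c, a factor of excitatory neurons, had 113, 111 and 110 CPM in the hippocampus and 286, 266 and 338 CPM in the cortex (log2 fold change −1.41 ± 0.13, adjusted p = 0.00594). Cux1, a factor of upper-layer neurons, had 31.8, 28.0 and 27.3 CPM against 52.0, 66.0 and 56.7 CPM (adjusted p = 0.0206). Otof, whose protein otoferlin is a calcium sensor of vesicle fusion, had 49.2, 54.1 and 18.1 CPM against 233, 525 and 212 CPM (log2 fold change −2.996 ± 0.52, adjusted p = 0.0292). Crym went the other way, with 64.3, 69.3 and 59.4 CPM in the hippocampus and 26.4, 30.4 and 26.6 CPM in the cortex (adjusted p = 0.0085). In the cortical direction 7 of the 14 did not overlap, beside 12.6% of all. In the hippocampal direction 3 did not, Crym, Etv1 and Nr4a2, beside 12.4% of all. DESeq2 called 5 of the 14 higher in the cortex and 2 higher in the hippocampus.

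**Figure D3:**
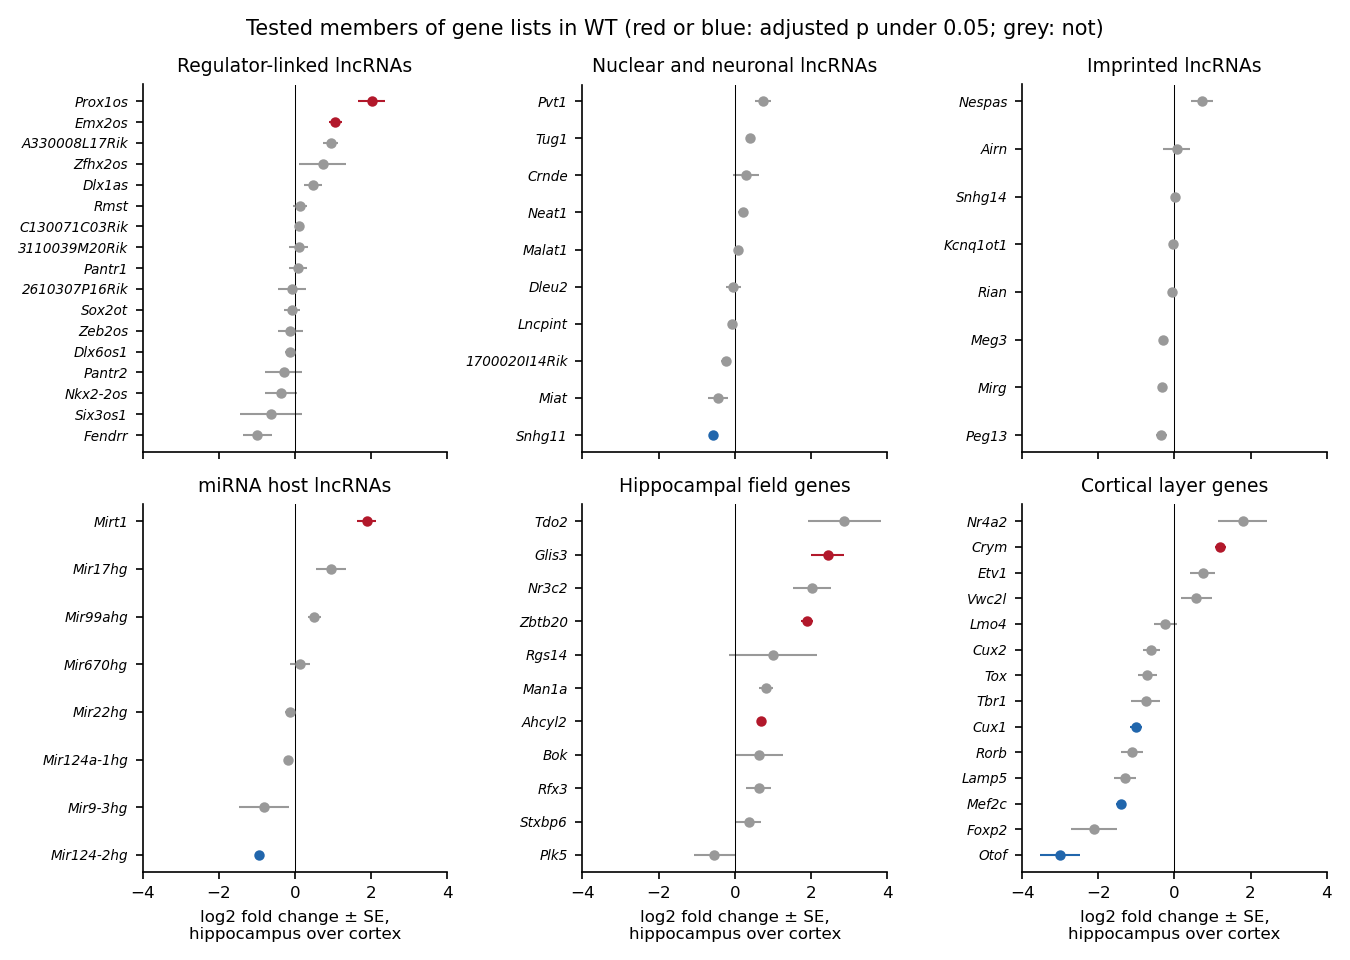
Log2 fold change between WT hippocampus and WT cortex with its SE (horizontal axis) for every tested member of 6 gene lists (vertical axis), in red or blue where the adjusted p was under 0.05 and grey otherwise. Prox1os and Emx2os stand at the top of the regulator-linked lncRNAs, whereas the 8 imprinted lncRNAs stay within 0.73 of zero.

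Markers of cell types and tissues that a dissection may hold were read in the same way. No gene was called among 10 interneuron, 6 oligodendrocyte, 6 astrocyte, 2 microglia, 2 ependymal, 5 vascular and meningeal and 4 striatal genes tested with edgeR, beside 3.6% of all genes and loci. Among these 35, 10 had an unadjusted p under 0.05, beside 17.6% of all genes and loci, and DESeq2 called Adarb2 higher in the hippocampus and Vtn higher in the cortex. Of the 9 neurogenesis genes, 3 had rows in the table and 0 passed the filter on low counts. The thalamic list had 1 of 5 called by edgeR, beside 3.6% of all genes and loci. This was Ntng1, higher in the hippocampus (log2 fold change 0.90 ± 0.15, adjusted p = 0.0241). DESeq2 called Ntng1 in the same direction and Rora higher in the cortex. Rora had 12.68, 18.11 and 16.97 CPM in the hippocampus and 60.3, 20.3 and 36.2 CPM in the cortex, without overlap. Kl, the Klotho gene, made in the choroid plexus and by some neurons, was the only choroid plexus member tested, with 31.2, 16.6 and 33.7 CPM in the hippocampus and 4.04, 3.71 and 4.09 CPM in the cortex (log2 fold change 2.78 ± 0.32, adjusted p = 0.0085). Folr1 had at most 3 counts in every WT library, and no row of Ttr was in the table. Otx2os1, the other member with rows, did not pass the filter on low counts. It had 4.08, 0 and 3.90 CPM in the hippocampus and 0.475, 1.09 and 0 CPM in the cortex. Summed striatal markers were at 74.1 to 250.6 CPM in the hippocampus and 229.3 to 380.3 CPM in the cortex. Summed vascular markers were at 43.4 to 66.8 CPM and 84.4 to 97.0 CPM, and the 3 microglia genes with rows at 30.5 to 42.4 CPM and 47.6 to 61.2 CPM. These vascular and microglia sums did not overlap, but each rested on 1 gene. Vtn had 10.3, 12.6 and 39.2 CPM in the hippocampus and 65.0, 59.2 and 47.3 CPM in the cortex. Trem2 had 27.7, 19.2 and 32.6 CPM against 48.0, 54.2 and 37.7 CPM. The sums of the other members overlapped, and Dcn (vascular) and C1qc (microglia) were higher in the hippocampus without overlap. Immediate early genes, which neurons switch on after firing, were summed to 55.1 to 124.5 CPM in the hippocampus and 185.5 to 250.4 CPM in the cortex. Of their 4 tested members, Fos (13.97, 15.4 and 11.0 CPM against 56.3, 33.6 and 34.8 CPM, adjusted p = 0.0237) and Fosb (18.3, 17.3 and 12.2 CPM against 30.6, 36.0 and 40.6 CPM, adjusted p = 0.0361) were higher in the cortex. Among all genes and loci, 1.64% were called in that direction. The part of these cell types and states in the lncRNA differences was not tested.

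Non-coding transcripts of single coding genes reached larger differences than these markers. Tspan18, a tetraspanin gene, had 55.5, 46.3 and 38.5 CPM in the hippocampus and 2.85, 2.62 and 1.46 CPM in the cortex (log2 fold change 4.30 ± 0.29, adjusted p = 0.00232), and it was called in every alternative, the replicate block included. Vwa3b had 43, 52 and 43 counts against 2, 0 and 0 (adjusted p = 0.00894). Slc44a5, of the choline transporter-like family, had 211, 252 and 254 CPM against 10.7, 15.9 and 42.9 CPM (adjusted p = 0.0182). Nt5dc1, Rufy1, Rps27l and the LIM-homeodomain gene Lhx9 were the other large hippocampal differences. Higher in the cortex were Gm11549, listed as protein coding, with 31.8, 31.6 and 28.7 CPM in the hippocampus and 288, 179 and 252 CPM in the cortex (log2 fold change −2.96 ± 0.21, adjusted p = 0.00232), Tle6, a Groucho family corepressor, with 2.36, 2.95 and 2.98 CPM against 25.2, 17.04 and 15.2 CPM (adjusted p = 0.00702), and Exph5, with 5.80, 4.21 and 4.82 CPM against 25.2, 19.2 and 30.7 CPM (adjusted p = 0.00772). Adam33, Rpap1, Coch and Cyb561d1 completed the 8 largest in that direction with Otof.

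Assembled loci held the smallest adjusted p-values. MSTRG.2544, MSTRG.2545 and MSTRG.2546, which carry adjacent numbers, were 8.17, 8.54 and 9.22 times higher in the hippocampus (log2 fold changes 3.03 ± 0.14, 3.09 ± 0.20 and 3.21 ± 0.22, adjusted p = 0.00114, 0.00232 and 0.00232) and were called in every alternative. MSTRG.2545 had 487, 604 and 475 CPM in the hippocampus and 52.7, 76.2 and 54.3 CPM in the cortex. MSTRG.10616 had 0 counts in each hippocampus library and 1704, 1614 and 1080 counts in the cortex libraries, at least 545.9-fold more (adjusted p = 0.00114). In 5xFAD mice the same locus had 307, 0 and 343 CPM in the hippocampus and 15.8, 270 and 428 CPM in the cortex, so that there the locus was at 0 in 1 hippocampus library only. Of the 177 called assembled loci, 102 lay in 33 runs of adjacent numbers called in the same direction, the longest of 11 loci (MSTRG.16072 to MSTRG.16082, log2 fold changes −1.50 to −1.22, higher in the cortex). Of 69 adjacent pairs with both loci called, 0 were called in opposite directions. Adjacent loci may be pieces of 1 transcript, so the number of calls is not a number of independent RNAs.

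Single rows, which stand for transcripts, gave fewer calls than sums. Of 21402 rows tested, 229 were called (1.07%), 137 higher in the hippocampus (0.64%) and 92 higher in the cortex (0.43%), and they belonged to 208 genes or loci, 178 of which were also called as sums. No gene had rows called in both directions. The numbers of row calls without hippocampus libraries 1, 2 and 3 were 14, 13 and 11, and those without cortex libraries 1, 2 and 3 were 27, 11 and 68. The rows with the largest differences were of an all-or-none kind. A retained-intron transcript of Srsf11, a splicing factor gene, at chr3:158011503-158023140, had 797, 802 and 841 counts in the hippocampus and 0 in each cortex library (at least 242.1-fold, adjusted p = 0.00556), while the sum over the gene's rows had a log2 fold change of 0.35 ± 0.15 (adjusted p = 0.309). A processed transcript of Ube4b had 165, 149 and 187 counts against 0, and its gene sum went the other way without passing the test (log2 fold change −1.01 ± 0.36, adjusted p = 0.207). A retained-intron transcript of Otof had 0, 7 and 0 counts in the hippocampus and 909, 2313 and 665 counts in the cortex (adjusted p = 0.0352).

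Rows at 100 counts or more in some WT libraries and at 3 or fewer in all the others numbered 312. Of the 48 that split the 6 libraries into 3 and 3, 7 were high in the 3 hippocampus libraries and 2 in the 3 cortex libraries, and the other 39 cut across the regions.

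The same regions of 5xFAD mice served as separate libraries in which to look at the WT calls. Of the 401, 390 were tested there and 369 (94.6%) had the same direction. Regions did not overlap in the WT direction for 258 (66.2%) and in the opposite direction for 0, whereas 19.4% of the 10772 genes and loci tested in both did not overlap in either direction. For the lncRNA genes, 62 of 65 had the same direction and 52 (80%) did not overlap. 6330420H09Rik had 5.42, 13.4 and 16.1 CPM in 5xFAD hippocampus and 0.459, 0 and 0.471 CPM in 5xFAD cortex, and 2310002F09Rik 13.7, 20.8 and 28.1 CPM against 2.53, 2.21 and 1.88 CPM. Gm13054 was an exception, with 17.3, 19.6 and 20.7 CPM in 5xFAD hippocampus and 22.7, 4.41 and 24.7 CPM in 5xFAD cortex. The 5xFAD comparison on its own gave 22 calls in 11126 (0.198%), and 8, 1 and 6 without 5xFAD hippocampus libraries 1, 2 and 3 and 1, 0 and 1 without cortex libraries 1, 2 and 3. A test of the difference between the regional effects of the 2 genotypes gave 0 calls in 11805 by edgeR (831 at an unadjusted p under 0.05) and 19 by DESeq2, and the smallest adjusted p of a WT call by edgeR was 0.622. The genotypes also differed in Y-linked counts, which were present in all WT libraries but in 5xFAD mice only in library 3 of each region. The sex of the mice and the genotype were thus partly confounded, and their parts were not tested.

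**Figure D4:**
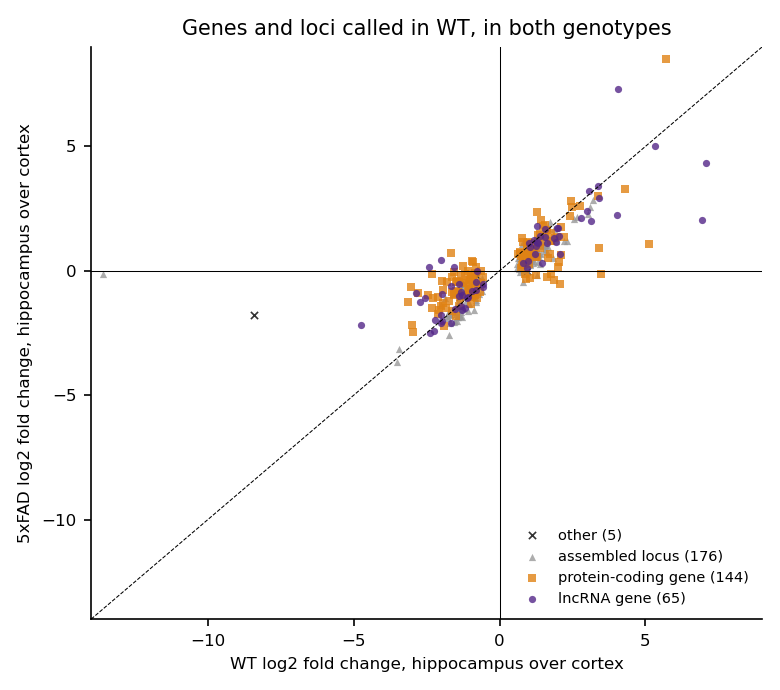
Log2 fold change between hippocampus and cortex in 5xFAD mice (vertical axis) against that in WT mice (horizontal axis) for the 390 genes and loci called in WT and tested in both, by class, with the line of equal values dashed. Most points lie in the 2 quadrants of equal sign, 62 of 65 for lncRNA genes, and MSTRG.10616 lies at the far left near 0 on the vertical axis.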

How the data were processed

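RNA-seq of 12 libraries, 3 for each of WT and 5xFAD hippocampus and cortex, was read from the authors' table of deposited counts, which holds whole-number, unnormalised reads of lncRNA and other non-coding transcripts. Trimmomatic 0.36 and edgeR are named in the submitters' processing notes. The aligner, counter, assembler and build are not given in the sources used here, nor is whether counting used the strand. Identifiers were matched to GENCODE M21 on GRCm38. All columns of the table were used (0 not used).

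Rows on X and Y were dropped, and rows were summed by gene or assembled locus. Sums and rows were filtered with filterByExpr, TMM-normalised and tested with edgeR 4.0.16 (quasi-likelihood, R 4.3.3) on the 6 WT libraries, calling at a Benjamini-Hochberg adjusted p of 0.05. The SE is the log2 fold change divided by the square root of F. CPM used TMM-scaled library sizes. The code was tested on simulated data. Libraries with the same number in both regions did not deviate together from their region means (correlations of deviations 0.0079, −0.055 and −0.052). This cannot show whether they come from the same mouse. Alternatives were DESeq2 1.42.0, other scalings and filters, a replicate block, all 12 libraries and leaving out each library. Pandas 2.3.3 and matplotlib 3.10.9 were used for tables and plots.

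Genes were named by size of log2 fold change among calls whose regions did not overlap and whose mean CPM was at least 1 in the higher region: 12 lncRNA genes, 8 coding genes, 4 assembled loci and 5 rows in each direction, plus the 10 most abundant lncRNAs and called list members. The members, lists and tests were chosen with earlier results of these data known.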

Additional observations from a re-analysis of the deposited data

How the results depend on the processing

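The WT contrast of sums gave 401 calls, and the count was 138 with annotated genes only (all 138 among the 401), 756 with DESeq2 (399 shared) and 5 with the replicate number as a block. Of the 401, 177 were assembled loci, which the setting with annotated genes only leaves out. That setting also lost calls of annotated genes. Leaving out 1 library gave 116 to 303. For rows the count of 229, of which 102 were assembled rows, became 69 with annotated genes only, 733 with DESeq2 and 70 with no filter on low counts. It was 363 with at least 10 counts in every library, 0 with the block by edgeR (2209 at an unadjusted p under 0.05), and 11 to 68 without 1 library. The 5xFAD contrast gave 22 calls, 337 with DESeq2, 0 with the block by edgeR (1324 unadjusted) and 0 to 8 without 1 library. The test between genotypes gave 0 calls by edgeR, 19 by DESeq2, 0 with the block (755 unadjusted) and 0 to 4 without 1 library. The other settings stayed within 1.5 times of each count.

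All 1084 alternative values of the 72 named and called genes, loci and rows had the direction of the reported value. Their regions did not overlap in the main fit, which left almost no room for a reversal. In every alternative other than the block, 17 of the 72 passed the threshold. The block left 4 called, MSTRG.2544, MSTRG.2545, MSTRG.2546 and Tspan18. Libraries with the same number did not deviate together, which cannot show whether they share a mouse. In 5xFAD mice, Y-linked counts were 0 in libraries 1 and 2 and present in library 3 of both regions. The block costs degrees of freedom, and whether the numbers mark mice is not known. Median log2 fold changes over all sums ran from −0.08 with library size alone to −0.00. With 3 libraries a region and 3517967 to 5014389 counts each, differences of lncRNAs near 3 counts were not detectable. The causes of these changes were not tested.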
